A study of Mus musculus with 16 samples.

Results

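De novo lipogenesis, the making of fatty acids from sugar-derived carbon, was followed through 10 genes for its enzymes and regulators, taken by symbol from the 23420 genes counted in each library. The members were Slc25a1, Acly, Acss2, Me1, Acaca, Acacb, Fasn, Srebf1, Mlxipl and Thrsp, and all 10 were found in every file and passed the filter on low counts in every comparison. RNA came from 8 male C57BL/6 mice with 1 adipocyte and 1 liver library each, so that there were 4 groups of 4 libraries. Of the control mice, labelled wild-type, WT-1153 was 70 days old and WT-1138, WT-1136 and WT-1135 were 76 days old. Of the mice labelled as adipocyte-specific Trib1 knockouts, KO-1152 and KO-1151 were 70 days old and KO-1139 and KO-1137 were 76 days old. Where values of single mice follow each other, they stand in ascending order of mouse number. Livers were those of the same mice, and their label carries the genotype of the fat cells. The Cre driver, the deleted part of Trib1, the diet and the feeding state at collection are not stated in the labels.

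In lipogenesis, citrate leaves the mitochondrion and is split in the cytosol to acetyl-CoA, which acetyl-CoA carboxylase turns into malonyl-CoA and fatty acid synthase joins into palmitate with reducing power from NADPH. Insulin and glucose drive the pathway largely through transcription factors, above all SREBP-1c, a product of Srebf1, and ChREBP, the product of Mlxipl. Both liver and fat carry out lipogenesis, the liver passing much of its product to lipoproteins and fat cells storing it as triglyceride.

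The promoter windows of 5 members are shown because their genes carry the main differences below. Slc25a1, Acss2 and Me1 were higher in knockout-labelled adipocytes, and Fasn and Mlxipl stood at opposite ends of the comparison of adipocytes with liver. The bases come from RefSeq on the GRCm38.p6 assembly, read 5′ to 3′ on the strand of the gene, and end at or before the first base of the gene in GENCODE M21. Capitals mark the CCAAT box (CCAAT), the GC box (GGGCGG) and the E-box (CACGTG), on either strand. The last GC box of Me1 runs past the end of the bases shown.
Slc25a1, chr16:17928220-17928469, minus strand: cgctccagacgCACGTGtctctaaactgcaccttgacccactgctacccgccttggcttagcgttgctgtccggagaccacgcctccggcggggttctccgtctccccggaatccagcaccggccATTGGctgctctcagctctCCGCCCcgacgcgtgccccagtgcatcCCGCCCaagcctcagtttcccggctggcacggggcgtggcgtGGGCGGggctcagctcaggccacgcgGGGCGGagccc
Acss2, chr2:155517793-155517947, plus strand: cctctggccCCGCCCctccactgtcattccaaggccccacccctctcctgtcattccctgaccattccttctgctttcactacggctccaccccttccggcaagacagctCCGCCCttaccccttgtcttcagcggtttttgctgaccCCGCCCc
Me1, chr9:86695954-86696164, minus strand: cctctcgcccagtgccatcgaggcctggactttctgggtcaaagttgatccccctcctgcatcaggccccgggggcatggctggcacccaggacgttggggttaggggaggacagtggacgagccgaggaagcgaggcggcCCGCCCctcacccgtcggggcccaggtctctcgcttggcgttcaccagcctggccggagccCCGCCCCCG
Fasn, chr11:120824548-120824797, minus strand: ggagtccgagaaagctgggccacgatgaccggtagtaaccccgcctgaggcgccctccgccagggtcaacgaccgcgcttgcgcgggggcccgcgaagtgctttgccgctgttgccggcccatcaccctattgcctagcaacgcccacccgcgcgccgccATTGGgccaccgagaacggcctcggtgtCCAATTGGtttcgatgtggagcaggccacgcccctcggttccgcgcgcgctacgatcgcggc
Mlxipl, chr5:135089640-135089889, plus strand: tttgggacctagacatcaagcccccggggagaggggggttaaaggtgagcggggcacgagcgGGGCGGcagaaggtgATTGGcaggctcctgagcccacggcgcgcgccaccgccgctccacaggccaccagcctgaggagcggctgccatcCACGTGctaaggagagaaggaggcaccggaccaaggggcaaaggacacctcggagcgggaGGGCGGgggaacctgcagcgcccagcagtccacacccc

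All 10 members matched the RefSeq table, with 14 windows of 250 bases between them, and 6 motifs were searched on both strands in these and in all 32851 windows. The E-box, whose letters are part of sites for ChREBP and USF factors, was present in 2 of the 14 windows, those of Slc25a1 and Mlxipl, against 6.02% of all windows. The sterol regulatory element written as TCACNCCAC was present in 1 member window, a second start of Mlxipl, against 1.05% of all. The carbohydrate response element, written strictly as a pair of exact E-boxes at its usual spacing, was in 0 windows of either set. The LXR-type direct repeat (DR4) was in 0 member windows and 0.0152% of all. Both patterns are so rare in these windows that a 0 among the members does not show whether such sites are absent. The CCAAT box was in 9 of 14 member windows against 33.8% of all, and the GC box was in 7 of 14 against 32.7%. In the Fasn window a pair of CCAAT boxes on opposite strands share letters. These are letter matches in short windows, and binding was not measured here. The windows of Acaca and Acacb lie inside the annotated genes and are not printed.

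Total counts were 28560887 to 53716669 per library, and each member had at least 960 counts in every library, so that the spread between mice and not counting error set the precision. Trib1, the targeted gene, had a scaled share of the counts (CPM, in which a library's counts are scaled to a common total) of 751 to 1292 CPM in wild-type and 1071 to 1408 CPM in knockout-labelled adipocytes, a log2 difference of 0.28 ± 0.18 (SE; adjusted p = 0.241, edgeR's quasi-likelihood test). The label was thus not borne out by the gene's counts, which may include exons outside a deletion, and the groups are called knockout-labelled throughout. Tissue markers matched the labels: 8 adipocyte markers summed to between 34386 and 49354 CPM in adipocyte libraries and to at most 53.5 CPM in liver, while 8 hepatocyte markers summed to at least 92533 CPM in liver and at most 121 CPM in adipocytes. Whole liver was homogenised, so its libraries also hold cells other than hepatocytes. In bulk RNA, fewer cells of a type and less RNA per cell cannot be told apart.

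In control mice, 9 of the 10 members were higher in adipocytes than in liver and 1, Mlxipl, was lower. The background was high, since 77.6% of all 14366 genes tested differed between the tissues, 40.5% higher and 37.2% lower in adipocytes. The median difference of the members was 2.27 on the log2 scale against 0.061 over all genes. For this comparison CPM were scaled over all 16 libraries, and a level per length is the CPM per kilobase of exon.

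Fasn, fatty acid synthase, which joins malonyl-CoA units into palmitate, had the largest difference of the members. It averaged 7319 ± 918 CPM (SD, n = 4) in wild-type adipocytes and 188 ± 52.8 CPM in wild-type liver, a 38.6-fold difference (log2 5.27 ± 0.31, adjusted p = 5.35e-08, edgeR's quasi-likelihood test). Fasn alone took between 0.791% and 1.06% of all counts in wild-type adipocyte libraries, and between 0.0116% and 0.0216% in wild-type liver libraries. The acetyl-CoA carboxylases followed. Acaca, the cytosolic form that supplies malonyl-CoA for synthesis, averaged 962 CPM in adipocytes and 56.5 CPM in liver (log2 4.08 ± 0.17, adjusted p = 3.07e-09). Acacb, the form at the mitochondrial surface whose malonyl-CoA restrains fatty acid entry into mitochondria, averaged 409 and 50.3 CPM (log2 3.01 ± 0.20, adjusted p = 1.21e-07).

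The genes of carbon and NADPH supply were also higher in fat cells, by smaller amounts. Me1, the cytosolic malic enzyme that yields NADPH, averaged 896 CPM in adipocytes and 116 CPM in liver (log2 2.93 ± 0.20, adjusted p = 1.49e-07, edgeR's quasi-likelihood test). Acly, ATP citrate lyase, averaged 752 and 137 CPM (log2 2.45 ± 0.19, adjusted p = 4.69e-07). Slc25a1, the mitochondrial citrate carrier, averaged 605 and 230 CPM (log2 1.38 ± 0.12, adjusted p = 8.72e-07). Acss2, which makes acetyl-CoA from acetate, had the smallest difference, 224 against 156 CPM (log2 0.51 ± 0.14, adjusted p = 0.00605).

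Among the regulators the tissues differed in both directions. Srebf1 averaged 421 CPM in adipocytes and 153 CPM in liver (log2 1.45 ± 0.17, adjusted p = 1.5e-05, edgeR's quasi-likelihood test). Thrsp, also called Spot 14, a small protein tied to lipogenesis and induced by thyroid hormone and carbohydrate, averaged 854 and 199 CPM (log2 2.09 ± 0.44, adjusted p = 0.00112). Mlxipl averaged 103 CPM in adipocytes and 659 CPM in liver, 6.45-fold lower in fat cells (log2 -2.69 ± 0.18, adjusted p = 1.66e-07). Transcripts from separate starts of Srebf1 and of Mlxipl were counted together, so the SREBP-1a and SREBP-1c forms, or the ChREBP isoforms, cannot be told apart. Scaling by library totals moved the median of all genes from 0.061 to 0.712, and each of the 10 members kept its direction and its call under that scaling.

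Per length, the order of the members differed between the tissues. In wild-type adipocytes Fasn was first at 669 ± 83.9 CPM per kilobase (SD, n = 4), followed by Thrsp at 390 ± 50.2, Slc25a1 at 279 ± 13.2, Me1 at 233 ± 53.6 and Acly at 142 ± 21.9. Srebf1 at 74.8 ± 12.3, Acaca at 56.3 ± 5.68, Acacb at 42.5 ± 6.04, Acss2 at 22 ± 0.361 and Mlxipl at 18.5 ± 2.11 CPM per kilobase made up the lower part. Neighbours in this order overlapped only for Slc25a1 with Me1 and for Srebf1 with Acaca. In wild-type liver Mlxipl was first at 119 ± 26 CPM per kilobase, and overlapped Slc25a1 at 106 ± 7.86, which in turn overlapped Thrsp at 90.9 ± 73.5. Me1, Srebf1, Acly, Fasn and Acss2 formed an overlapping run from 30.3 down to 15.4 CPM per kilobase, and Acacb at 5.22 ± 1.42 and Acaca at 3.31 ± 0.503 closed the order. Fasn thus made up 34.7% of the members' summed level per length in wild-type adipocytes and 3.9% in wild-type liver.

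**Figure D1:**
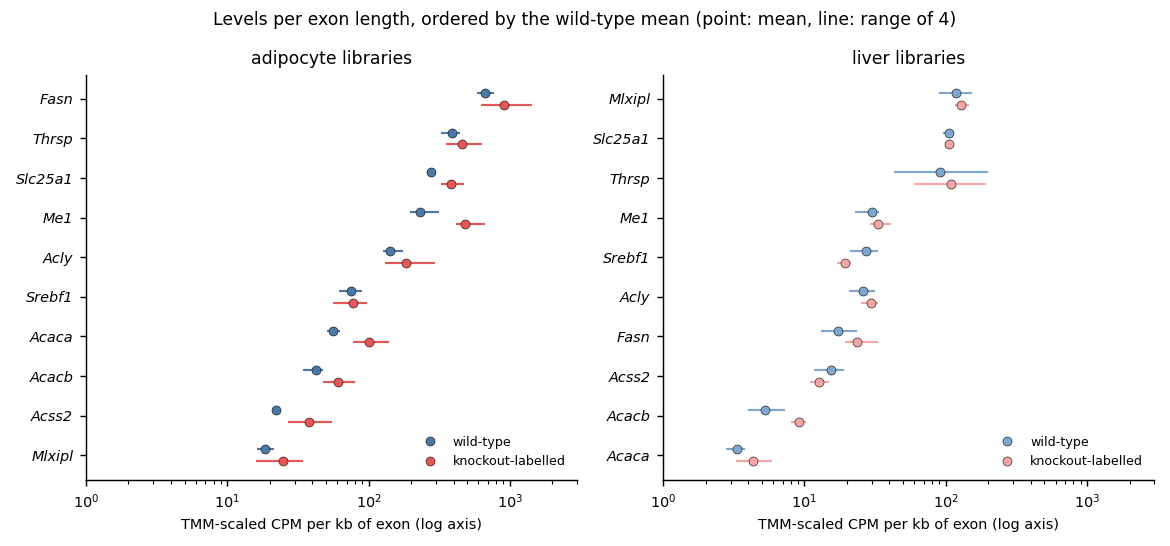
Level of each member in CPM per kilobase of exon on a log axis, in adipocyte (left) and liver (right) libraries, with a point at the mean and a line over the range of the 4 libraries of each genotype. Fasn leads in wild-type adipocytes at a mean of 669, and Mlxipl leads in wild-type liver at 119.

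The ranks depend on the exon length taken. For Acss2 and Acaca the union of exons used here (10163 and 17074 bases) is far longer than the longest transcript (3609 and 9513 bases). By the longest transcript Acss2 moved from rank 8 to rank 4 in wild-type liver, and Me1 from 4 to 6. Only Mlxipl at rank 1 and Srebf1 at rank 5 kept their ranks there. In wild-type adipocytes ranks 1 to 5 and rank 10 were kept, and Srebf1, Acaca, Acacb and Acss2 moved. In knockout-labelled adipocytes Fasn again had the highest mean, at 910 ± 356 CPM per kilobase, but its range overlapped that of Me1 at 485 ± 121. Me1 in turn overlapped Thrsp at 456 ± 124 just below it. In knockout-labelled liver the order again opened with Mlxipl at 129 ± 11.8, Thrsp at 109 ± 58.8 and Slc25a1 at 105 ± 4.89 CPM per kilobase. These 3 overlapped one after the other, and Slc25a1 did not overlap Me1 below it.

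Between genotypes in adipocytes, 4 of the 10 members were higher in knockout-labelled mice and 0 were lower: Me1, Acaca, Acss2 and Slc25a1. This count has to be read against the background, since 35.2% of all 13795 genes tested were called in this comparison, 18% of genes higher and 17.1% lower in knockout-labelled adipocytes. The median difference of the 10 members was 0.43 on the log2 scale, against -0.011 over all genes. By role, 3 of 4 genes of carbon and NADPH supply were called higher, 1 of 3 genes of fatty acid building, and 0 of 3 regulators. CPM in what follows were scaled within each tissue by the trimmed mean of M values (TMM).

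Me1 changed most. It was at 1010, 1420, 918 and 969 CPM in control adipocytes, from WT-1135 to WT-1153, and at 1896, 3106, 1920 and 1977 CPM in knockout-labelled ones, from KO-1137 to KO-1152. All 4 knockout-labelled libraries were above the highest control, and KO-1139 stood well above the other 3. The difference was 1.04 ± 0.20 on the log2 scale, a 2.06-fold rise (adjusted p = 0.00452, edgeR's quasi-likelihood test).

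Acaca was at 1066, 1045, 1293 and 1243 CPM in control adipocytes and at 1786, 2894, 1928 and 1576 CPM in the knockout-labelled ones. The groups did not overlap, and KO-1139 was again the highest. Acaca rose 1.76-fold (log2 0.82 ± 0.19, adjusted p = 0.00911, edgeR's quasi-likelihood test). Acss2, the acetate-using enzyme, was nearly constant in the controls at 276, 261, 276 and 268 CPM, and was at 415, 679, 324 and 411 CPM in knockout-labelled adipocytes. Each of the latter was above every control, with KO-1151 the nearest to them. Acss2 rose 1.69-fold (log2 0.76 ± 0.20, adjusted p = 0.015). Each of Me1, Acaca and Acss2 stayed past the threshold in all 17 alternative analyses, with log2 differences of 0.84 to 1.21, 0.60 to 1.04 and 0.51 to 1.01. Without KO-1139 the values were 0.84 for Me1 (adjusted p = 0.00948), 0.60 for Acaca (adjusted p = 0.0136) and 0.51 for Acss2 (adjusted p = 0.0126).

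Slc25a1 was at 758, 740, 683 and 738 CPM in control adipocytes and at 858, 1244, 991 and 842 CPM in knockout-labelled ones. The groups were separate, though KO-1152 and KO-1137 lay close to the controls. The 1.35-fold rise (log2 0.43 ± 0.13, adjusted p = 0.0309, edgeR's quasi-likelihood test) was the least stable of the 4 calls, being kept in 9 of 17 alternatives. It was lost with scaling by library totals (0.23, adjusted p = 0.161) and in mice of 76 days alone (0.53, adjusted p = 0.123). It was also lost without any 1 of the 4 control mice and without KO-1139 or KO-1151, with values of 0.30 to 0.44 and adjusted p of 0.0507 to 0.0807. Me1, Acaca, Acss2 and Slc25a1 were also the 4 members whose groups did not overlap, a pattern that 18.7% of all genes showed in this direction and 15.2% in the other.

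**Figure D2:**
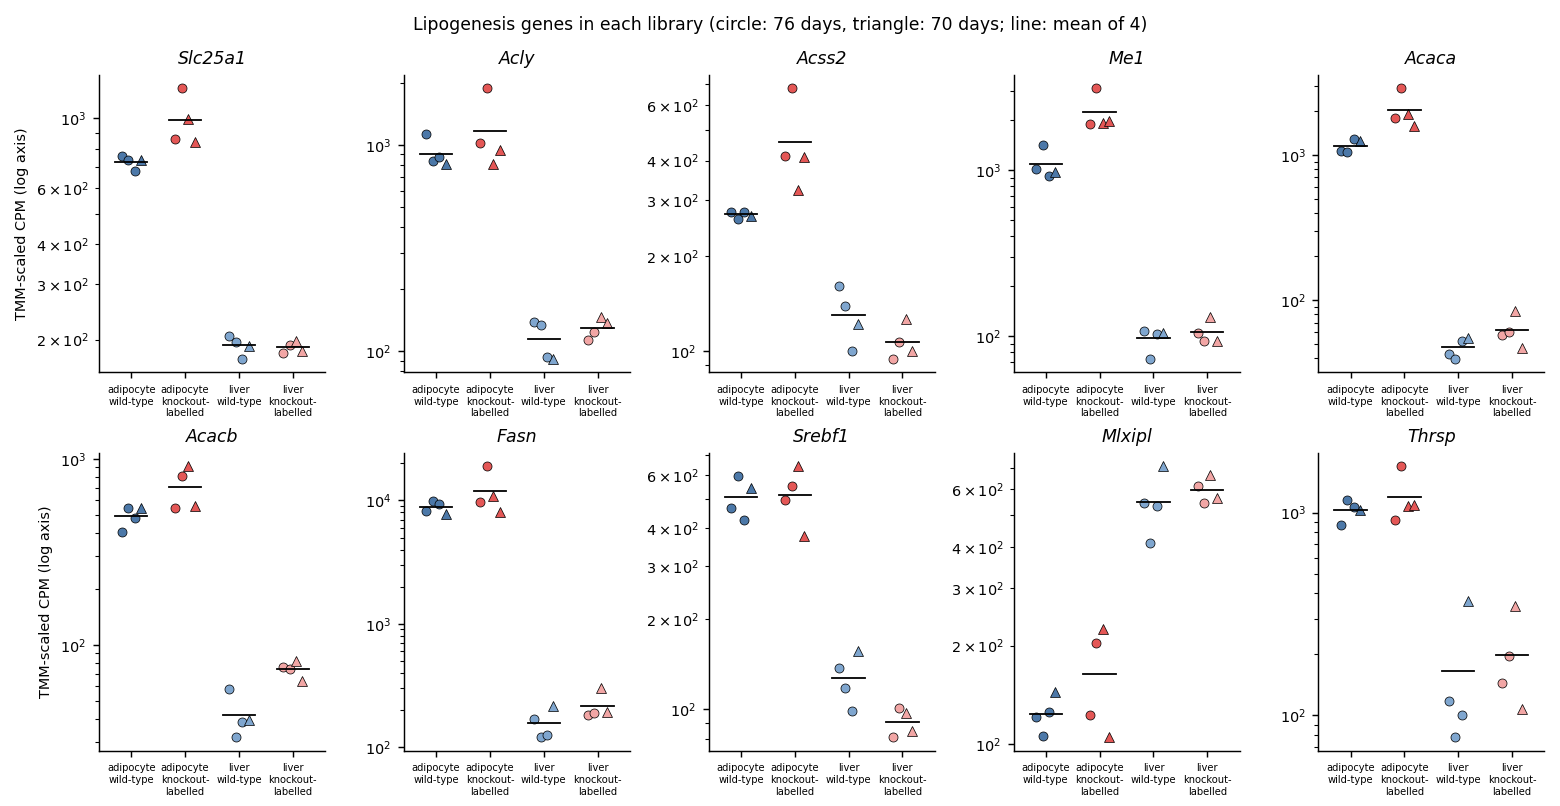
TMM-scaled CPM (log axis) of each member, 1 panel per gene, in the 4 groups, with 1 point per library (circles for mice of 76 days, triangles for 70 days), a line at the mean, and scaling done within each tissue. The knockout-labelled adipocytes of Me1 lie at 1896 to 3106, above controls at 918 to 1420, and the knockout-labelled livers of Acacb lie at 63.9 to 82.3, above controls at 31.9 to 57.9.

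The other enzymes had overlapping groups or missed the threshold. Fasn was at 8247, 9907, 9391 and 7752 CPM in control adipocytes and at 9661, 18915, 10855 and 8136 CPM in knockout-labelled ones. The groups overlapped, and KO-1139 alone was far above all controls (log2 0.43 ± 0.26, adjusted p = 0.217, edgeR's quasi-likelihood test). Without KO-1139 the difference was 0.12. Acly was at 807 to 1125 CPM in controls and 811 to 1888 CPM in knockout-labelled adipocytes (log2 0.36 ± 0.25, adjusted p = 0.284), and without KO-1139 its difference was 0.0328. For both genes, then, 1 mouse carried most of the difference in means. Acacb was at 405, 544, 481 and 543 CPM in controls and at 542, 805, 911 and 555 CPM in knockout-labelled adipocytes. Here KO-1139 and KO-1151 were high while KO-1137 and KO-1152 were level with the upper controls (log2 0.51 ± 0.18, adjusted p = 0.0549). Acacb passed the threshold with DESeq2 (0.51, adjusted p = 0.0222), without KO-1137 (0.62, adjusted p = 0.0233), without KO-1152 (0.61, adjusted p = 0.0426) and with all 16 libraries in the fit (0.53, adjusted p = 0.0393).

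None of the 3 regulators passed the test in adipocytes. Srebf1 was at 425 to 597 CPM in controls and 378 to 642 CPM in knockout-labelled adipocytes (log2 0.03 ± 0.17, adjusted p = 0.915, edgeR's quasi-likelihood test), so that the knockout-labelled range enclosed that of the controls. The sign of the Srebf1 difference turned with scaling by library totals (-0.17) and without WT-1135, WT-1138, KO-1139 or KO-1151 (-0.0899 to -0.00371). Mlxipl was at 106 to 144 CPM in controls and at 123, 204, 225 and 105 CPM in knockout-labelled adipocytes (log2 0.40 ± 0.23, adjusted p = 0.192). Its knockout-labelled libraries fell apart into KO-1139 and KO-1151 above all controls and KO-1137 and KO-1152 within or below them. Thrsp was at 868 to 1154 CPM and 914 to 1688 CPM (log2 0.21 ± 0.19, adjusted p = 0.4), and without KO-1139 its difference was -0.000155.

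**Figure D3:**
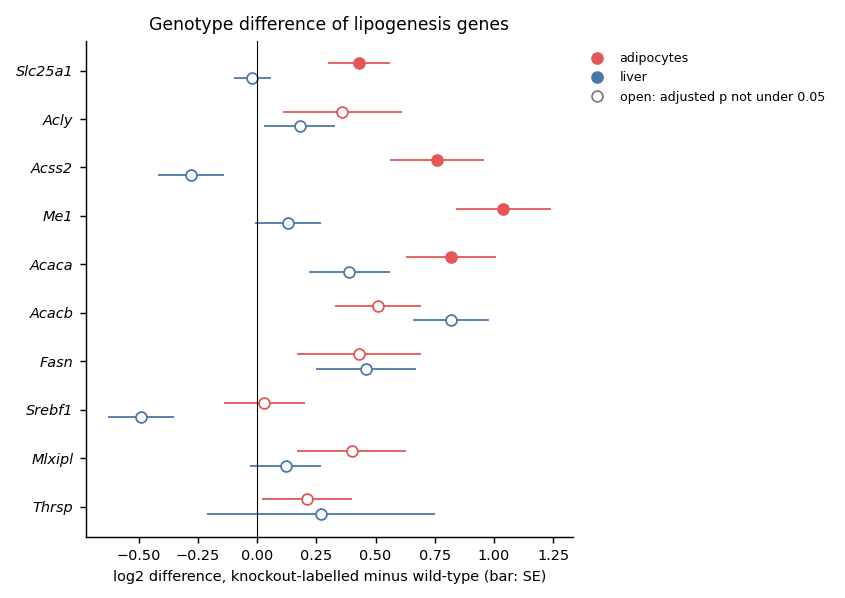
Log2 difference of knockout-labelled from wild-type mice for each member in adipocytes and in liver, with the standard error as a bar on either side and open marks where the adjusted p was not under 0.05. The filled marks are Me1 at 1.04, Acaca at 0.82, Acss2 at 0.76 and Slc25a1 at 0.43, all in adipocytes.

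KO-1139 was the highest of the 4 knockout-labelled adipocyte libraries in 7 of 10 members, and KO-1151 in the other 3, Acacb, Srebf1 and Mlxipl. KO-1152 was the lowest in 5 members. How often each library was the highest or lowest over all genes was not computed, so these counts may not be particular to the members. Age in days was the one batch-like label that split both genotypes, with 2 knockout-labelled and 3 control mice at day 76 and 2 and 1 at day 70. Within those ages the adipocyte differences were 1.15 and 1.01 for Me1, 1.01 and 0.49 for Acaca, 0.97 and 0.44 for Acss2, and 0.51 and 0.31 for Slc25a1, on the log2 scale. All 4 differences were positive at both ages, and the single control at day 70 leaves that age with no spread for the controls. Srebf1 had 0.09 at day 76 and -0.14 at day 70.

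Markers of other cell types moved with the genotype in the adipocyte libraries. The summed level of 6 endothelial markers was 550 to 1559 CPM in controls and 153 to 327 CPM in knockout-labelled adipocytes, with 6 of 6 called lower. For 6 mural markers the sums were 240 to 329 and 99.5 to 161 CPM (5 of 6 lower), and for 6 fibroblast and progenitor markers 721 to 876 and 318 to 675 CPM (4 of 6 lower). Macrophage markers summed to 142 to 296 and 66.3 to 338 CPM (0 of 6 called) and lymphocyte markers to 24.2 to 51.6 and 12.6 to 35.4 CPM (2 of 6 lower). Without KO-1137 the macrophage markers Lyz2 (-1.07), Csf1r (-1.44) and Cd68 (-1.04) were called lower. In mice of 76 days only, 6 of 6 endothelial and 3 of 6 mural markers were called lower. There 0 of 6 fibroblast and progenitor markers and 0 of 6 lymphocyte markers were called lower. Brown or beige adipocyte markers summed to 149 to 224 and 124 to 260 CPM, with 3 of 6 higher and 1 lower. Skeletal muscle markers summed to 12.5 to 32.9 and 7.36 to 8.05 CPM, and hepatocyte markers to 45 to 121 and 19.8 to 31.9 CPM. Epithelial markers summed to 0.207 to 3.42 and 0.231 to 0.458 CPM, with Krt8, Krt14 and Krt5 at 0 in every knockout-labelled adipocyte library. The adipocyte markers themselves summed to 34386 to 49354 CPM in controls and 40637 to 45674 CPM in knockout-labelled mice, with 1 of 8 called higher. The part of these other cells in the higher Me1, Acaca, Acss2 and Slc25a1 was not tested.

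In liver, 0 of the 10 members passed edgeR's quasi-likelihood test between genotypes, and the smallest unadjusted p were those of Acacb, Srebf1 and Acaca. Over all 13288 genes tested only 3 passed, or 0.0226%, all of them higher. DESeq2 called 1 member, Acacb, among 102 genes, and limma-voom called 0. The median difference of the members was 0.15 on the log2 scale against 0.000 over all genes.

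Acacb had the clearest separation of the members in liver. It was at 57.9, 31.9, 38.4 and 39.4 CPM in control livers and at 76.2, 74.1, 82.3 and 63.9 CPM in knockout-labelled livers. All 4 knockout-labelled livers were above every control, a pattern shown by 2.36% of all genes in this direction and 2.3% in the other, and WT-1135 was the control nearest to them. The difference was 0.82 ± 0.16 on the log2 scale (unadjusted p = 0.000376, adjusted p = 0.26, edgeR's quasi-likelihood test), with 0.86 at day 76 and 0.88 at day 70. With DESeq2 the same log2 difference of 0.82 had an adjusted p of 0.00139, and without WT-1135 edgeR gave 1.02 with an adjusted p of 0.0316.

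Srebf1 had the lowest difference of the members in liver, at 137, 118, 98.9 and 156 CPM in controls and 80.9, 101, 97.1 and 85.1 CPM in knockout-labelled mice. Only WT-1138, at 98.9 CPM, lay within the knockout-labelled range (log2 -0.49 ± 0.14, unadjusted p = 0.00447, adjusted p = 0.407, edgeR's quasi-likelihood test). Acaca was at 42.4, 39.3, 52.3 and 54.4 CPM in controls and 57.1, 59.9, 83.6 and 46.5 CPM in knockout-labelled livers. Its groups overlapped through KO-1152 alone (log2 0.39 ± 0.17, unadjusted p = 0.0425, adjusted p = 0.567). Acacb and Srebf1 thus lay on opposite sides of 0 in the same livers, neither past the threshold with edgeR.

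The remaining members overlapped between the liver groups. Fasn was at 167, 120, 126 and 215 CPM in controls and 180, 190, 301 and 191 CPM in knockout-labelled livers, with KO-1151 far above the rest (log2 0.46 ± 0.21, adjusted p = 0.586, edgeR's quasi-likelihood test). Acss2 had 99.9 to 160 and 94.3 to 126 CPM (log2 -0.28 ± 0.14, adjusted p = 0.616). Acly had 91.8 to 138 and 113 to 146 CPM (log2 0.18 ± 0.15, adjusted p = 0.755). For Acly the difference came to -0.02 at day 76 and 0.62 at day 70, so the ages did not share a direction. Me1 had 73 to 108 and 93.4 to 131 CPM (log2 0.13 ± 0.14, adjusted p = 0.827). Mlxipl had 413 to 706 and 544 to 663 CPM (log2 0.12 ± 0.15, adjusted p = 0.842), with the knockout-labelled livers inside the range of the controls. Slc25a1 had 174 to 206 and 182 to 198 CPM (log2 -0.02 ± 0.08, adjusted p = 0.949).

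Thrsp was the most variable member between mice of one group in liver, though not in adipocytes. In liver it was at 118, 78.1, 101 and 366 CPM in controls and at 145, 196, 348 and 108 CPM in knockout-labelled mice. The highest library of either genotype, WT-1153 and KO-1151, came from a mouse of 70 days, while KO-1152 of the same age was the lowest of its group. Its difference was 0.27 ± 0.48 (adjusted p = 0.901, edgeR's quasi-likelihood test), with 0.79 at day 76 and -0.91 at day 70. The within-group SD of liver Thrsp was 0.864 on the log2 scale, above 94.7% of all genes, whose median was 0.217. Slc25a1 was the steadiest member in liver, with an SD of 0.0901, above only 9.13% of genes. In adipocytes the members' SDs ran from 0.182 for Slc25a1 to 0.396 for Acly, with Thrsp at 0.289.

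**Figure D4:**
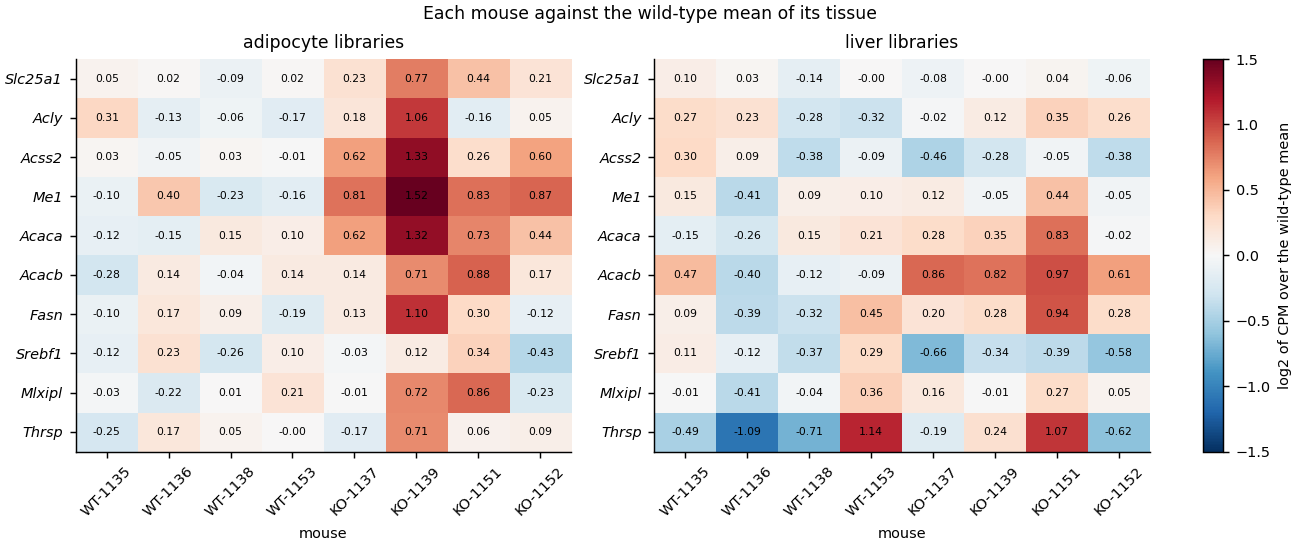
Heat map of log2 CPM of each member (rows) in each mouse (columns) relative to the wild-type mean of the same tissue, with adipocytes on the left, liver on the right and the value written in each cell. KO-1139 is the highest knockout-labelled adipocyte library in 7 of 10 members and KO-1151 the highest knockout-labelled liver in 9 of 10. The matching shares over all genes were not computed.

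The livers of some mice were high or low in several members at once. KO-1151 was the highest knockout-labelled liver in 9 of 10 members, Srebf1 being the exception. Among the controls WT-1135 was highest in 5 members (Slc25a1, Acly, Acss2, Me1 and Acacb) and WT-1153 in the other 5, while WT-1136 was lowest in 6. The matching shares over all genes were not computed, so a trait of these libraries cannot be told from a trait of the members. Across the 8 livers, taken as 8 independent mice, log2 CPM of Thrsp went with that of Fasn (Pearson r = 0.86, exact permutation p = 0.00536, adjusted over 9 members p = 0.0482, and Spearman rho = 0.83, adjusted exact p = 0.0692). Without KO-1151 and WT-1136, the livers farthest from the median of Fasn, r was 0.71 with an exact permutation p of 0.131. That choice leaves 6 livers with a narrower range of Fasn. Leaving out single mice ended the call without WT-1135, WT-1136, KO-1137, KO-1139 or KO-1151, with r of 0.79 to 0.86.

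Mlxipl had r = 0.81 with Fasn (adjusted exact p = 0.0621) and rho = 0.90 (adjusted exact p = 0.0411), with r = 0.66 without the same 2 livers. Acaca had r = 0.79 (adjusted exact p = 0.0621), which fell to 0.18 without them, and Me1 had r = 0.74 (adjusted exact p = 0.0975), which turned to -0.27. KO-1151 and WT-1136 were picked as extremes of Fasn, so leaving both out narrows the range of Fasn by choice. The drop therefore cannot show whether these relations rest on those livers. With single mice left out, r ran from 0.53 to 0.89 for Acaca and from 0.51 to 0.89 for Me1. Acacb had r = 0.70, Slc25a1 0.31, Acly 0.26, Acss2 -0.01 and Srebf1 -0.06, with adjusted exact p of 0.0975 or more. As deviations from the mean of each genotype group, Mlxipl had r = 0.81 with Fasn and Srebf1 had r = 0.75. No p is given for these, since deviations from group means are not freely exchangeable between the groups. No value was computed within an age, since the 5 livers of 76 days and 3 of 70 days are too few.

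Whether the genotype difference itself differed between the tissues was tested with all 16 libraries. It was larger in adipocytes than in liver for 3 of 10 members, against a background of 19.1% of 14898 genes called, 10.4% of genes in this direction and 8.73% in the other. Acss2 led, with a difference of differences of 1.06 ± 0.26 on the log2 scale (adjusted p = 0.00952, edgeR's quasi-likelihood test), since it was higher in knockout-labelled adipocytes and had -0.28 in liver. Me1 had 0.93 ± 0.27 (adjusted p = 0.025) and Slc25a1 0.48 ± 0.16 (adjusted p = 0.0488). With the mouse as a block, since both tissues came from the same animals, only Acss2 remained past the threshold, at 1.0 (adjusted p = 0.0265). Me1 then had 0.93 (adjusted p = 0.0761) and Slc25a1 0.46 (adjusted p = 0.083). Slc25a1 also lost this call without any single mouse (0.33 to 0.54, adjusted p = 0.0537 to 0.174), and Me1 lost it without WT-1135, WT-1138, WT-1153, KO-1139 or KO-1152 (0.66 to 0.94).

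Acaca, called higher in adipocytes, did not pass the test of the difference between tissues (0.45 ± 0.27, adjusted p = 0.274, edgeR's quasi-likelihood test). Srebf1 had 0.54 ± 0.24 (adjusted p = 0.128), with values of 0.03 in adipocytes and -0.49 in liver. Mlxipl had 0.31 ± 0.29, Acly 0.20 ± 0.31, Fasn -0.01 ± 0.38, Thrsp -0.04 ± 0.58 and Acacb -0.29 ± 0.27, with adjusted p of 0.486 or more. The SEs of Fasn and Thrsp leave room for sizeable differences either way.

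The balance of the 2 carboxylase genes was compared as a ratio of counts, in which the scaling of libraries cancels. The ratio of Acaca to Acacb was 2.63, 1.92, 2.69 and 2.29 in control adipocytes and 3.3, 3.59, 2.12 and 2.84 in knockout-labelled ones. Acaca counts exceeded those of Acacb in every adipocyte library. In liver the ratio was 0.732, 1.23, 1.36 and 1.38 in controls and 0.749, 0.808, 1.02 and 0.728 in knockout-labelled mice, so that 3 of 4 controls were above 1 and 3 of 4 knockout-labelled livers below it. The mean log2 ratio differed by 0.30 in adipocytes (exact permutation p = 0.229, adjusted over both tissues 0.229) and by -0.48 in liver (exact permutation p = 0.114, adjusted 0.229), where 4 against 4 can give no p below 0.0286. Ratios of counts carry the length of each gene, and only their change between groups was tested.

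The wider pathway was read from 9 lists of genes around the members, with 86 genes tested in adipocytes. Of these 32 were called higher and 7 lower in knockout-labelled mice, with a median of 0.19 on the log2 scale against -0.011 over all genes, of which 18% were higher and 17.1% lower. The list of steps from pyruvate to citrate, which feeds Slc25a1 with its substrate, had the most calls. Of its 11 genes 10 were higher and 0 lower, with a median of 0.76. Mpc2, a subunit of the mitochondrial pyruvate carrier, had 1.47 ± 0.14 (adjusted p = 0.000132, edgeR's quasi-likelihood test), and Dlat and Pdha1, subunits of pyruvate dehydrogenase, had 1.22 ± 0.14 and 1.0 ± 0.13. These lists were drawn up with earlier results of these data known.

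The list drawn up around NADPH supply other than Me1 had 6 of 9 genes higher and 0 lower, with a median of 0.46. Not every gene on it makes NADPH itself, Taldo1 and Tkt among them. Me2, a mitochondrial malic enzyme that works mainly with NAD, had 1.55 ± 0.14 on the log2 scale (adjusted p = 0.000129, edgeR's quasi-likelihood test). The pentose phosphate enzymes G6pdx and Pgd, which yield NADPH, had 0.97 ± 0.12 and 0.96 ± 0.15. Glucose entry and glycolysis had 4 of 10 genes higher and 0 lower, with Pfkl at 0.82 ± 0.13, Pfkp at 0.46 ± 0.09 and Aldoa at 0.67 ± 0.15. Acyl-CoA synthetases and paralogs of the members had 5 of 9 higher and 0 lower, among them Acsl5 at 0.68 ± 0.08, Oxsm, the mitochondrial ketoacyl synthase, at 0.60 ± 0.10, and Acss3 at 0.75 ± 0.15.

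Most genes acting on the regulators did not pass the test. Of 15 genes of SREBP and LXR control, 3 were higher and 1 lower, with a median of -0.10, no larger a share than the 35.2% called among all genes. Insig2 and Insig1, which hold the SREBP escort in the endoplasmic reticulum, rose by 0.97 ± 0.07 (adjusted p = 4.04e-05, edgeR's quasi-likelihood test) and 0.70 ± 0.16, and Nr1h3, which encodes LXR alpha, rose by 0.49 ± 0.13. Of 7 ChREBP partners and targets 1 was higher and 2 lower, also near the background. Mlx, the dimer partner of ChREBP, had 0.41 ± 0.14, and the target genes Klf10 and Txnip had -0.64 ± 0.20 and -0.46 ± 0.15. In mice of 76 days alone these 3 calls were lost (adjusted p = 0.336, 0.196 and 0.119), as were those of Insig1 (0.64, adjusted p = 0.122) and Nr1h3 (0.46, adjusted p = 0.179). The insulin input had 2 of 8 higher and 0 lower, Mtor at 0.58 ± 0.11 and Insr at 0.40 ± 0.12 (lost in mice of 76 days alone, adjusted p = 0.168), with Foxo1 at 0.37 ± 0.15 missing the threshold. Several of these calls hung on single mice. Without WT-1135 alone, adjusted p was 0.105 for Mlx, 0.096 for Klf10, 0.0832 for Txnip, 0.0524 for Nr1h3 and 0.0832 for Insr. The call of Mlx was kept only without KO-1137, that of Txnip only without KO-1152 or WT-1153, and that of Klf10 only without KO-1137, WT-1136 or WT-1153. That of Insr was also lost without KO-1139, KO-1151, KO-1152 or WT-1136, while Foxo1 passed without KO-1137 (0.45, adjusted p = 0.0448) or WT-1153 (0.46, adjusted p = 0.0485).

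Downstream of Fasn, 0 of 7 genes of fatty acid modification were higher and 2 were lower, beside 18% higher and 17.1% lower of all genes. The share called was no larger than the 35.2% among all genes. Fads1, the delta-5 desaturase of polyunsaturated fatty acids, had -1.87 ± 0.13 on the log2 scale (adjusted p = 4.07e-05, edgeR's quasi-likelihood test) and Elovl5 had -0.32 ± 0.07. Scd1, the stearoyl-CoA desaturase, had 0.79 ± 0.31 (adjusted p = 0.0702) and passed with DESeq2 (adjusted p = 0.00723) and limma-voom (adjusted p = 0.0451). Of 10 genes that handle malonyl-CoA or regulate the carboxylases, 1 was higher and 2 lower, again no larger a share than among all genes. Prkaa2 had 0.35 ± 0.11, and Prkab2, a subunit of the kinase that inactivates the carboxylases, had -0.62 ± 0.12. Cpt1a, the carnitine palmitoyltransferase that malonyl-CoA inhibits, had -0.71 ± 0.23. Without WT-1135 the adjusted p was 0.101 for Prkaa2 and 0.0982 for Cpt1a. Both calls were also lost without WT-1136, KO-1139, KO-1151 or KO-1152, and that of Prkaa2 without WT-1138. Scaling by library totals moved the median of all genes from -0.011 to -0.205. Under it 1293 of all 13795 genes were called higher and 3899 lower, against 2487 and 2362 with TMM. The lists then had 9 of 11 genes higher for pyruvate to citrate and 4 of 9 for NADPH supply. SREBP and LXR control went to 2 higher and 6 lower of 15, and malonyl-CoA handling to 0 higher and 3 lower of 10, beside that rise in lower calls. With mice of 76 days only, 1730 of 14338 genes were called, 832 higher and 898 lower. The higher calls then came to 5 of 11 for pyruvate to citrate and 3 of 9 for NADPH supply. They came to 2 of 10 for glycolysis and 2 of 9 for acyl-CoA synthetases. The calls of Aldoa, Acss3, Elovl5, Prkab2, Prkaa2 and Cpt1a were lost there (adjusted p = 0.085, 0.0576, 0.102, 0.0572, 0.0884 and 0.209).

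**Figure D5:**
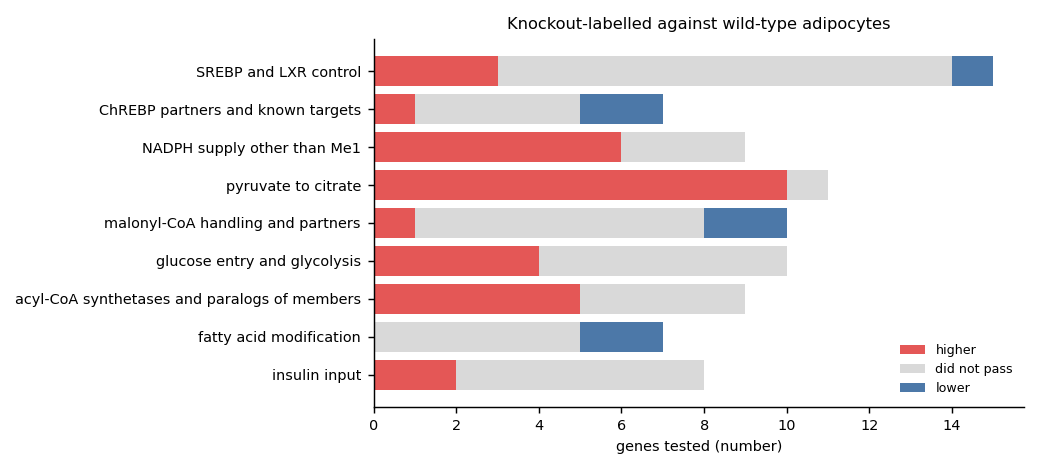
Number of genes tested in each pathway list (bar length) in knockout-labelled against wild-type adipocytes, split into genes called higher, genes that did not pass an adjusted p of 0.05, and genes called lower. The list from pyruvate to citrate has 10 of 11 genes higher, and fatty acid modification has 2 of 7 lower and 0 higher. Over all genes tested 18% were higher and 17.1% lower.

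In liver 0 of 85 genes of these lists passed edgeR's quasi-likelihood test between genotypes. The smallest p was that of Elovl6, which lengthens the palmitate made by Fasn, at 1.02 ± 0.15 on the log2 scale (adjusted p = 0.0989), and DESeq2 gave it an adjusted p of 7.14e-07. With edgeR, Elovl6 also passed without the filter on low counts (1.01, adjusted p = 0.0397) and without KO-1152 (1.12, adjusted p = 0.0423). Txnip had 1.38 ± 0.38 in liver (adjusted p = 0.4) against -0.46 in adipocytes, and its difference between tissues was -1.82 ± 0.46 (adjusted p = 0.0115, edgeR's quasi-likelihood test). Of 89 genes tested for that difference 23 were higher and 5 lower in adipocytes than in liver, 10 of the 23 on the list from pyruvate to citrate, against 10.4% higher and 8.73% lower of all genes. Between wild-type tissues the same lists had 43 genes higher and 33 lower in adipocytes out of 88, beside 40.5% higher and 37.2% lower of all genes, so these counts are near the background.

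The members lie on chromosomes 2, 5, 7, 9, 11 and 16 of GRCm38 (GENCODE M21). Slc25a1 is at chr16:17925223-17928219, Acly at chr11:100476353-100528000, Acss2 at chr2:155517948-155585724, Me1 at chr9:86581371-86695953 and Acaca at chr11:84129672-84401651. Acacb is at chr5:114146535-114250761, Fasn at chr11:120805846-120824547, Srebf1 at chr11:60199089-60222581, Mlxipl at chr5:135089890-135138382 and Thrsp at chr7:97412938-97417730. On the other strand, Srebf1 overlaps Rai1, Acss2 overlaps Ggt7, Gss and Acss2os, Me1 overlaps A330041J22Rik and Acaca overlaps Gm11437. Acacb overlaps Gm13784 and Mlxipl overlaps Gm43500 there as well. On the same strand, Acss2 overlaps Mipep-ps and Gm20637, Me1 overlaps Gm38230 and Acaca overlaps Gm37391. Acly (Mir7116) and Srebf1 (Mir6921 and Mir6922) overlap microRNA genes on the same strand. These overlaps are of whole gene spans, and overlap of exons was not examined. The labels do not state the strand setting of the counting, so whether reads in any exon shared across strands were told apart is not known. A strand setting cannot separate genes on the same strand.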

How the data were processed

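Poly-A RNA of collagenase-freed subcutaneous adipocytes and of whole liver was sequenced on an Illumina NextSeq, per the labels' protocols. The submitters' processing notes name STAR 2.5.2b, featureCounts 1.5.0, bcl2fastq 2.17 and the build mm10. Neither these notes nor the labels give the annotation, the strand setting or how reads with several matches were treated. What the authors deposited is 1 table of raw counts per library, by gene symbol and without normalization. Of counts from 1 to 20, 77.9% were even, so low counts are not counts of independent molecules. No pair of same-group libraries came closer than 30.4 in chi-square per degree of freedom, and each library was kept as its own replicate.

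Counts were fitted per tissue with edgeR 4.0.16 (R 4.3.3): TMM scaling, filterByExpr, the quasi-likelihood test, two-sided, and Benjamini-Hochberg adjustment over all genes tested, with a threshold of 0.05. A group means model over all 16 libraries tested the difference between tissues, and wild-type adipocytes were set against wild-type liver. Alternatives were library totals, relative log expression factors, DESeq2 1.42.0, limma-voom (limma 3.58.1), no filter, halved counts, mice of 76 days only, each mouse left out, all 16 libraries in 1 fit, age as a covariate and the mouse as a block. Adipocyte and liver libraries of 1 number come from the same animal per the labels, although the deviations of the libraries of a mouse correlated only weakly across genes (r from -0.0592 to 0.0916). Correlations used log2 CPM with a prior count of 2 and exact permutation in scipy 1.17.1. The edgeR step was tested on simulated data. All 10 members are named in every comparison, and up to 3 genes per list, those with the smallest p. The members and lists were chosen with earlier results of these data known. Promoter bases come from the RefSeq table on GRCm38.p6 and gene positions and exon lengths from GENCODE M21.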

Additional observations from a re-analysis of the deposited data

Results flagged for a closer look

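Of 40 groups of 4 libraries (10 members in 4 groups), 4 had a highest or lowest library whose gap to its nearest neighbour, as a share of the group's range, exceeded Dixon's critical value for 4 values, which chance passes in about 1 of 20 groups. Me1 was 3106 CPM in the adipocytes of KO-1139, far above the other 3 knockout-labelled mice, and Me1 was 73 CPM in the liver of WT-1136, far below the other 3 controls. Fasn was 301 CPM in the liver of KO-1151. Thrsp was 366 CPM in the liver of WT-1153.

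The genotype difference was larger in adipocytes than in liver, by edgeR's quasi-likelihood test of the difference itself, for Acss2 (1.06 on the log2 scale, adjusted p = 0.00952), Me1 (0.93, adjusted p = 0.025) and Slc25a1 (0.48, adjusted p = 0.0488). Of all genes 10.4% were called in this direction. With the mouse as a block the calls of Me1 (adjusted p = 0.0761) and Slc25a1 (adjusted p = 0.083) were lost, and that of Slc25a1 was also lost whichever single mouse was left out.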

How the results depend on the processing

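Replicate spread and not depth limited these comparisons. In wild-type adipocytes against wild-type liver, leaving out WT-1153 and taking mice of 76 days only were the same fit, counted under both names. All 120 alternatives for single members and 36 for counts kept direction and call there. In the adipocyte comparison 152 of 170 single-member alternatives did, in liver 165 of 170, and for the difference between tissues 127 of 160. For the ratio of Acaca to Acacb 18 of 18 did, but only its direction was open to change. With a mouse left out, 3 against 4 give no exact permutation p below 0.0571, and the fewer mice of 76 days give none lower. Genes called in adipocytes numbered 1730 with mice of 76 days only. In liver 102 genes were called with DESeq2, 5 without a filter, 0 with mice of 76 days only and 1 to 3 when single mice were left out. Members called higher in liver numbered 1 with DESeq2 and 0 to 1 when single mice were left out. For the difference between tissues, members called higher numbered 1 with library totals, 1 with mice of 76 days only and 1 to 2 when single mice were left out, and genes called numbered 666 with mice of 76 days only and 1758 to 2988 without single mice.

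With the mouse as a replicate block, pairing the tissues of an animal, 1 member remained higher in the difference between tissues and 2245 genes were called in place of 2845. The block changed no call of a member between wild-type tissues.

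Directions turned for Srebf1 in adipocytes with library totals (-0.17) and over single mice left out (-0.0899 to 0.16), and for Thrsp there (-0.000155 to 0.32). In liver they turned for Acly with mice of 76 days only (-0.0421), for Slc25a1 (-0.0661 to 0.0127) and for Thrsp (-0.15 to 1.01). In the difference between tissues they turned for Acly with library totals (-0.0532) and over single mice (-0.18 to 0.40), for Fasn with relative log expression factors (0.0077), DESeq2 (0.00766), mice of 76 days only (0.24) and over single mice (-0.40 to 0.24), and for Thrsp over single mice (-0.78 to 0.43). The cause of these turns was not tested.

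Members passing with Fasn in liver numbered 0 without the 2 farthest livers and 0 to 2 over single mice. The correlation of Acss2 turned with library totals (0.08), as deviations (0.46), without the farthest livers (0.12) and over single mice (-0.22 to 0.26). That of Srebf1 turned with library totals (0.00), as deviations (0.75), without the farthest livers (0.25) and over single mice (-0.32 to 0.09). Me1 turned to -0.27 without the farthest livers, and over single mice Slc25a1 ran from -0.03 to 0.54 and Acly from -0.08 to 0.54. Of 240 alternatives for levels per length, 45 moved a level by more than 1 SD, 26 of them with the longest transcript as the length and 19 with library totals.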
